A study of Mus musculus with 9 samples.

Results

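The interferon response and major histocompatibility complex (MHC) class I genes were examined in aggregates of mouse mammary epithelial cells. The 38 genes come from a named list that was chosen with earlier results of these data known. Each was looked up by its symbol among the 54456 gene names of the deposited count table. All 38 were found, and all 38 passed the filter on low counts that left 18051 genes for testing. Of these genes, 28 belong to the interferon response and 10 to MHC class I presentation and the immunoproteasome. The 3 groups were wild-type basal (myoepithelial) cells alone, wild-type luminal cells alone, and a 50% mixture of both, with 3 libraries each. The cells had been purified by flow cytometry and formed into aggregates. In every group the aggregates lay in 80% Matrigel next to heparin sulfate beads of 100 to 150 µm that had been soaked in FGF10 at 100 µg/mL. FGF10 is a growth factor towards which mammary epithelium moves as a group. Migration had lasted 56 h according to the treatment label and 55 h according to the sample titles. The labels name no interferon, virus or other immune stimulus, and every group was exposed to FGF10. The age and strain of the mice, how many were used, and whether the libraries of a group had separate sources are not stated in the labels, so p-values measure the spread between these libraries, which may be technical. Only the mixed aggregates hold both cell types, and in their RNA the cell that made a transcript is not known.

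Interferons are secreted proteins that bind receptors on the cell surface. The receptors activate JAK kinases, which phosphorylate STAT transcription factors. A complex that holds STAT2 and IRF9 binds the interferon-stimulated response element (ISRE), and STAT dimers bind the gamma-activated site (GAS). The genes behind these elements encode sensors of foreign nucleic acid, proteins that block viral replication, and the machinery that displays peptides on MHC class I. In that machinery the immunoproteasome cuts proteins, the TAP transporter carries the peptides into the endoplasmic reticulum, and tapasin helps to load them onto a heavy chain bound to beta-2-microglobulin. Epithelial cells, like most cells with a nucleus, carry MHC class I on their surface.

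The promoters of these genes were searched for 9 letters of the ISRE, GAAANNGAA, on both strands, and for the GAS letters TTCNNNGAA, which read the same on both strands. RefSeq promoter sequences of build GRCm38.p6 were matched for 27 of the 38 genes by symbol. Usp18, Ifi27, Rtp4, Dhx58, Zbp1, Mx1, Mx2, Parp9, Parp14, Nlrc5 and Tap2 had no entry. The ISRE letters lay upstream of the start in 11 of the 27 genes (40.7%) and in 8.18% of all 27025 symbols of the promoter table. Those genes were Stat2, Isg15, Ifit1, Ifit3, Ifih1, Oas1a, Rsad2, Bst2, Gbp2, Gbp3 and B2m. The GAS letters lay there in 5 of the 27 (18.5%), Irf1, Ifit2, Oas1a, Bst2 and Psmb8, and in 8.13% of all symbols. A match describes letters and not a bound site. Below are the matches of the 4 genes with ISRE letters that had the largest absolute log2 difference between luminal and basal aggregates. Each is printed 5′ to 3′ on the strand of the gene, with the ISRE letters in capitals. They stand as GAAANNGAA in Isg15 and Oas1a and as the reverse complement in Gbp3 and Ifit3, and matches that overlap run together.
Isg15, chr4:156200856-156200916, minus strand: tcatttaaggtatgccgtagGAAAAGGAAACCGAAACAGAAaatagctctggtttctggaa
Oas1a, chr5:120907526-120907565, minus strand: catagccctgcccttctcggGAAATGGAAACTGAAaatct
Gbp3, chr3:142559980-142560034, plus strand: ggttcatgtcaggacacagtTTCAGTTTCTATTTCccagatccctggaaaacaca
Ifit3, chr19:34583354-34583455, plus strand: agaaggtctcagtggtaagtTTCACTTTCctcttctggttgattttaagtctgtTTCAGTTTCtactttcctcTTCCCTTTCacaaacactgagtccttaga
The window of Isg15 holds 3 overlapping matches, those of Oas1a and Gbp3 hold 2 each, and that of Ifit3 holds 3 separate ones.

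The libraries held 15585324 to 19164405 counts. At this depth 3 counts, the limit that a count of 0 allows, correspond to 0.152 to 0.187 CPM (counts scaled to a library of 1000000), and this limit covers counting error only. The summed level of 10 basal markers was 10300 to 11790 CPM in basal, 1440 to 2856 CPM in luminal and 6493 to 7726 CPM in mixed libraries. That of 10 luminal markers was 3559 to 4005, 8833 to 11930 and 10220 to 11790 CPM. The prefixes of the column names form 3 code series of unstated meaning. In series A are the mixed libraries and basal 2, in series B basal 1, basal 3 and luminal 1, and in series C luminal 2 and luminal 3. A fit with the series as a term sets luminal 1 against basal 1 and 3, and the mixed libraries against basal 2, and its values are called within-series below. In both of these comparisons 1 arm is a single library, which is assumed to vary like the others. Mixed and luminal aggregates never share a series, so series and group cannot be told apart in that comparison. A list of 15 macrophage and monocyte markers summed to 3.80, 33.5 and 4.14 CPM in basal 1 to 3, to 21.5 to 54.2 CPM in luminal and to 30.6 to 53.2 CPM in mixed libraries. In basal 1, basal 3 and each luminal library, 7 to 9 of the 15 were at 0 counts, and in basal 2 and the mixed libraries 0 to 2. The 10 lymphocyte markers summed to 13.7, 26.6 and 15 CPM in basal, 0.747 to 2.61 CPM in luminal and 11.5 to 25.6 CPM in mixed libraries, with Cd8a at 0 in every library but basal 2. The part of such cells in the results below was not tested, and in these bulk libraries fewer cells of a type and less RNA per cell cannot be told apart.

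Per kilobase of exon, B2m, H2-D1, H2-K1 and Tapbp had the highest mean levels of the 38 genes in each group. B2m, which encodes beta-2-microglobulin, was the most abundant of the 38, with a mean level of 436 CPM per kilobase in basal, 674 in luminal and 818 in mixed aggregates. The heavy chain genes followed, H2-D1 with 272, 484 and 324 CPM per kilobase and H2-K1 with 143, 238 and 202. Tapbp, the gene of tapasin, stood at 56.0, 120 and 98.4 CPM per kilobase. The other genes of peptide presentation were lower, such as Tap2 with 9.28, 26.3 and 8.6 CPM per kilobase and Nlrc5 with 0.393, 0.371 and 0.174. The most abundant interferon response genes were Ifi27 (50.4, 48.5 and 53.4 CPM per kilobase) and Bst2 (41.6, 43.5 and 67.3), the gene of tetherin, which holds budding virus particles at the cell surface. The lowest was Mx2, an antiviral GTPase, with 0.134, 0.162 and 0.364 CPM per kilobase, and it had 0 counts in basal 2. Levels of H2-K1 and H2-D1, and of the IFIT, OAS, Mx and GBP genes, are uncertain because each has close copies in the genome and multi-mapped reads were left out of the counts.

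**Figure D1:**
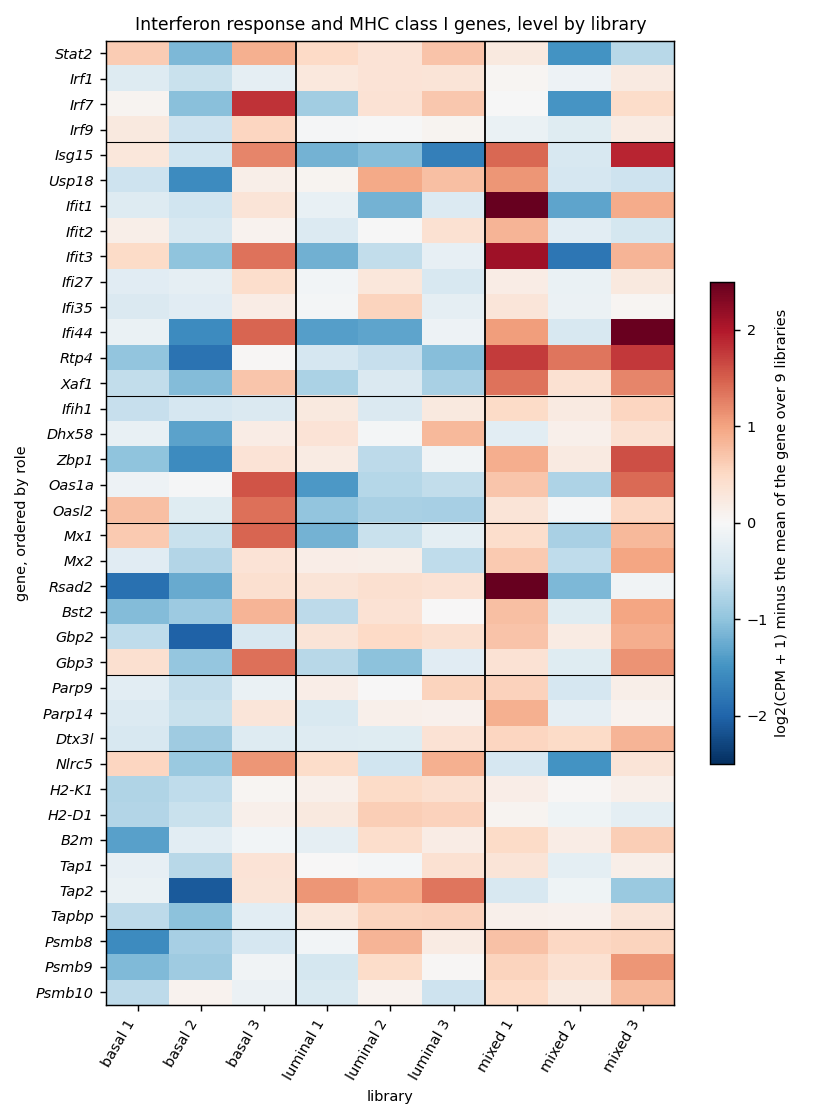
Each cell is the log2(CPM + 1) of a gene in a library minus the mean of that gene over the 9 libraries, with genes in rows by role and libraries in columns by group. Colours end at 2.5 in either direction, which 2 values exceed (Ifit1 and Rsad2 in mixed 1), and basal 2 and mixed 2 are mostly blue among the interferon response genes.

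The interferon response genes varied more within groups than most genes did. The median over the 28 genes of the SD of log2 CPM between libraries of a group was 0.76, against 0.41 for the 10 MHC class I and immunoproteasome genes and 0.40 for all genes tested. Basal 3 was the highest basal library for 27 of the 28 (96.4%), where 21.6% of all genes tested had basal 3 highest. Basal 2 was the lowest for 22 (78.6%, against 45% of all genes). Mixed 2 was the lowest mixed library for 25 (89.3%, against 35.2%), while mixed 3 was the highest for 18 and mixed 1 for 10. Luminal libraries were less ordered, with luminal 1 lowest for 15 of the 28 genes. Summed over the 28, the level was 444, 321 and 754 CPM in basal 1 to 3, 484, 573 and 567 CPM in luminal 1 to 3, and 863, 485 and 837 CPM in mixed 1 to 3. So basal 3 lay above every luminal library and mixed 2 below luminal 2 and 3. Genes of one response are not independent of each other. The summed macrophage and monocyte markers were at 33.5 CPM in basal 2 and 4.14 CPM in basal 3, and at 30.6, 53.2 and 48.0 CPM in mixed 1 to 3. Their part in this order was not tested.

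**Figure D2:**
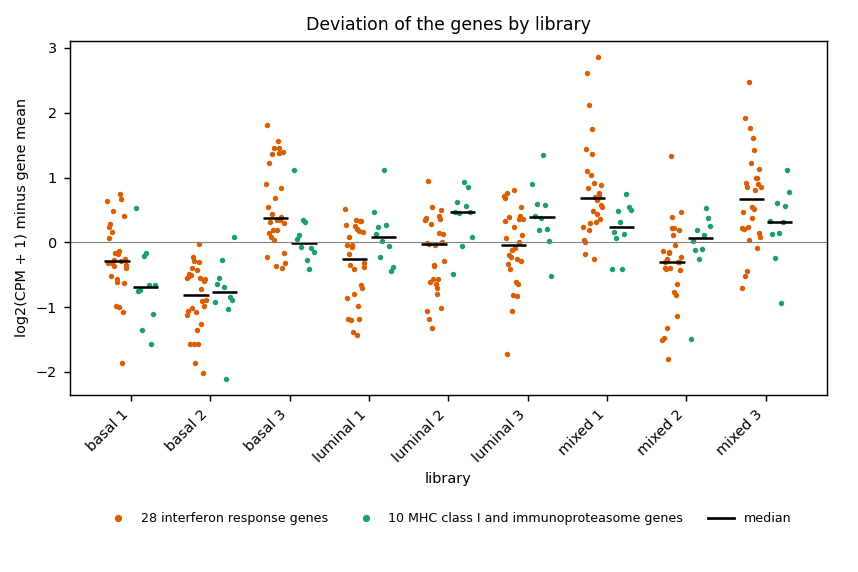
Each point is a gene's log2(CPM + 1) minus its mean over 9 libraries, for the 28 interferon response genes and the 10 MHC class I and immunoproteasome genes of each library, with the median as a bar. The interferon response median is 0.37 in basal 3, 0.68 in mixed 1 and 0.68 in mixed 3, and below 0 in the other 6 libraries, with the lowest, -0.81, in basal 2.

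The genes were compared between the 3 kinds of aggregate by edgeR's quasi-likelihood test, with p-values adjusted over all 18051 genes. A gene is called where it passed in this fit. The list was not chosen independently of these data, so its shares beside those of all genes are description only. In luminal against basal aggregates 7 of the 38 were higher (18.4%) and 2 lower (5.26%), where 12.8% of all genes were higher and 14.4% lower. The higher ones were Irf1, Gbp2, H2-K1, H2-D1, Tap2, Tapbp and Psmb8, and the lower ones Isg15 and Oasl2. The median log2 difference of the 38 was 0.21, against -0.02 over all genes. Without basal 2 this median was -0.01 and without basal 3 it was 0.59. The count of higher genes among the 38 fell to 3 without luminal 3 and to 4 without luminal 2 or without basal 1. In these fits 1751, 1894 and 2002 of all genes were higher, in that order, against 2304 with all libraries. The count of lower genes among the 38 was 4 without basal 2, 3 without basal 1, mixed 2 or mixed 3, and 1 without basal 3 or any luminal library. In these fits 2351, 2332, 2538, 2860, 2108, 1907, 2100 and 2013 of all genes were lower, in that order, against 2595 with all libraries. Within series only Tapbp (higher) and Oasl2 (lower) passed.

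In mixed against basal aggregates 7 of the 38 were higher (18.4%), where 6.39% of all genes were higher and 7.33% lower. The 7 were Rtp4, Ifih1, Gbp2, Dtx3l, Tapbp, Psmb8 and Psmb9. None was lower by edgeR, DESeq2 or limma-voom, and none had an unadjusted p under 0.05 in that direction. Without basal 2, however, 2 of the 38 were lower, as were 2493 of 18960 genes tested. With all libraries the median difference was 0.57 on the log2 scale against -0.07 over all genes. Of the 38 differences 30 were above 0, as were 8366 of all 18051. With the code series as a term, against basal 2 alone, the median was 1.354, and with basal 2 and mixed 3 both left out it was 0.22. The count of higher genes among the 38 was 10 without basal 3, 4 without mixed 1, and 3 without basal 1 or without mixed 3. In these fits 558, 774, 706 and 889 of all genes were higher, in that order, against 1153 with all libraries. The median of the 38 was 0.88 without basal 3, 0.37 without basal 2 and 0.29 without mixed 1.

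In mixed against luminal aggregates 5 of the 38 were higher (13.2%) and 1 lower (2.63%), where 15.2% of all genes were higher and 14.2% lower. The higher ones were Isg15, Oasl2, Rtp4, Xaf1 and Psmb10, and the lower one Tap2. The median was 0.32 against -0.05 over all genes, and 1.576 with the code series as a term. Leaving out luminal 1 or mixed 1 left 2 of the 38 higher, luminal 3 or mixed 3 left 3, and leaving out mixed 2 or basal 2 gave 9 and 8. In these fits 1623, 1942, 1550, 1992, 2295 and 3400 of all genes were higher, in that order, against 2749 with all libraries. The lower call ended without luminal 1, luminal 3, mixed 1 or mixed 3, and 2 of the 38 were lower without basal 2 or basal 3. In these fits 1620, 1417, 2128, 1854, 3374 and 2191 of all genes were lower, in that order, against 2560 with all libraries. The 3 comparisons share libraries and are not independent of each other.

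**Figure D3:**
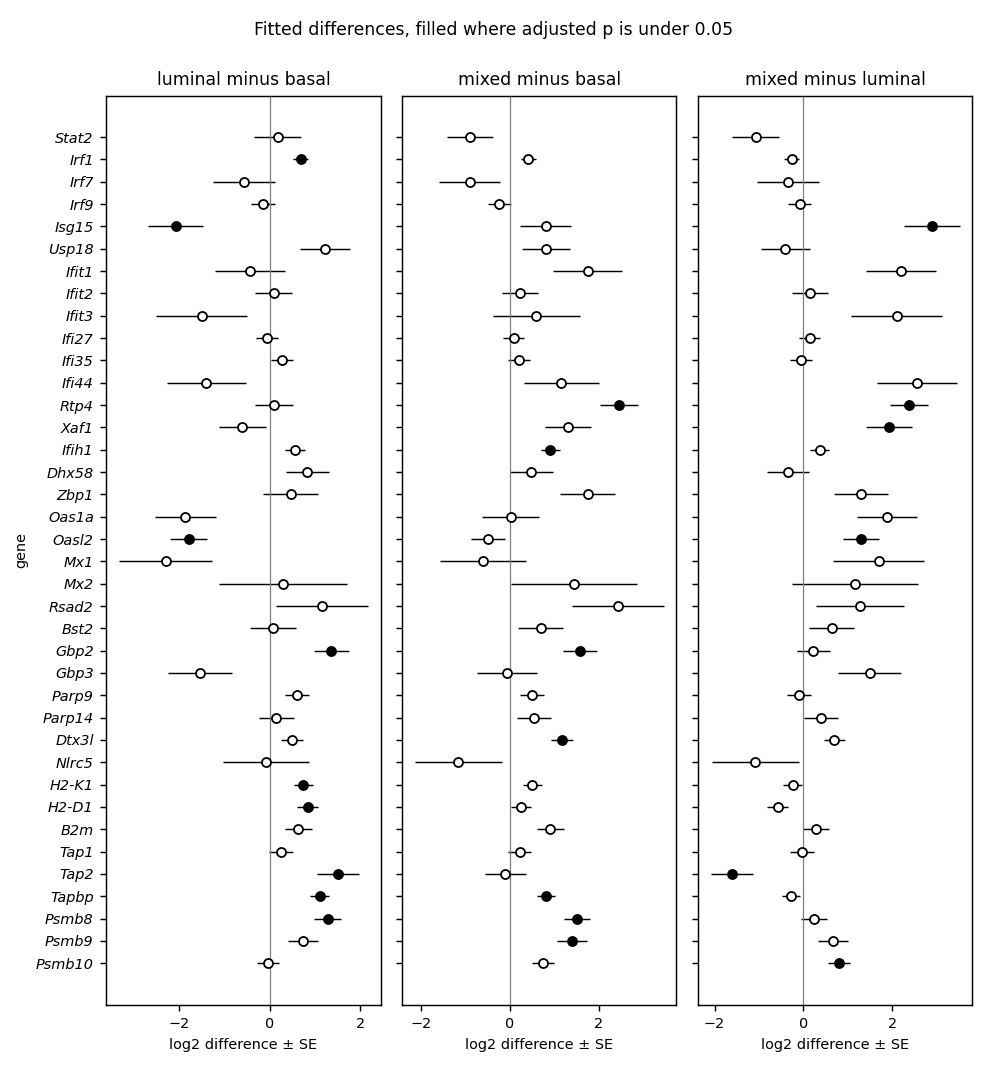
Points are fitted log2 differences with their standard errors for the 38 genes, ordered by role, in the 3 comparisons, and filled points passed an adjusted p of 0.05. There are 9 filled points in luminal minus basal, 7 in mixed minus basal and 6 in mixed minus luminal.

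The calls were also counted by role. Of the 10 MHC class I and immunoproteasome genes 5 were higher in luminal than in basal aggregates and 3 in mixed than in basal, while against luminal aggregates 1 was higher and 1 lower in the mixed ones. Their median log2 differences were 0.74, 0.63 and -0.14. Of the 28 interferon response genes 2 were higher and 2 lower in luminal against basal aggregates, 4 were higher in mixed than in basal, and 4 were higher in mixed than in luminal. Their medians were 0.08, 0.57 and 0.66. Of all genes 12.8% were higher and 14.4% lower in the first comparison, 6.39% higher in the second, and 15.2% higher and 14.2% lower in the third, and the difference between the 2 sets was not tested.

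Of the transcription factors Irf1 differed between groups. Irf1 (mm39 chromosome 11, 53660841 to 53669200) encodes a factor that binds ISRE letters and is itself induced through GAS. Its level was 47.4, 40.1 and 50.7 CPM in basal 1 to 3, 71.7, 75.5 and 74.4 CPM in luminal 1 to 3, and 60.9, 54.0 and 69.0 CPM in mixed 1 to 3. The 3 groups did not overlap, with mixed libraries between the other two. Irf1 was 0.68 ± 0.16 higher in luminal than in basal aggregates on the log2 scale (adjusted p = 0.0085), and this held without each library in turn, but the within-series value of 0.55 did not pass (adjusted p = 0.15). The table's exons of Irf1 share 20% of their bases with Gm17334, and strand was not used in the counting. Stat2 and Irf9, whose products belong to the ISRE-binding complex, were not called in any comparison. Stat2 passed as lower in mixed than in basal aggregates without basal 2. Stat2 ranged from 6.83 to 30.8 CPM in basal, from 20.7 to 27.1 CPM in luminal and from 5.05 to 19.2 CPM in mixed libraries. Irf7, which amplifies the interferon response, showed the widest range within basal libraries of these factors, with 24.1, 10.6 and 83.4 CPM, and it was not called either. Irf9 ranged from 26.5 to 56.2 CPM in basal, from 37.1 to 39.9 CPM in luminal and from 30.6 to 44.0 CPM in mixed libraries.

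Isg15 and Oasl2 were lowest in luminal aggregates. Isg15 (chromosome 4, 156283912 to 156285253) encodes a ubiquitin-like protein that is joined to other proteins during the interferon response. Its level was 11.4, 6.28 and 22.9 CPM in basal 1 to 3, 3.51, 3.92 and 2.12 CPM in luminal 1 to 3, and 26.7, 6.77 and 37.6 CPM in mixed 1 to 3. Every luminal library lay below every basal and mixed one, and basal and mixed libraries overlapped. The log2 difference of Isg15 between luminal and basal aggregates was -2.09 ± 0.61 (adjusted p = 0.025), and it was 2.89 ± 0.62 higher in mixed than in luminal aggregates (adjusted p = 0.0066). The first call ended without basal 3 (adjusted p = 0.12) and without luminal 1, 2 or 3 (0.068, 0.056 and 0.093), and the within-series value of -2.29 did not pass (adjusted p = 0.17).

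Oasl2 (chromosome 5, 115034997 to 115050295), a relative of the oligoadenylate synthetases that sense double-stranded RNA, was at 19.0, 8.65 and 29.8 CPM in basal 1 to 3. It was at 5.02, 5.82 and 5.66 CPM in luminal 1 to 3 and at 13.9, 10.6 and 16 CPM in mixed 1 to 3. The luminal libraries again lay below all others. The log2 difference between luminal and basal aggregates was -1.80 ± 0.40 (adjusted p = 0.0057), which passed in all 21 alternatives, and its within-series value was -2.28 (adjusted p = 0.011). Between mixed and luminal aggregates it was 1.29 ± 0.40 (adjusted p = 0.03), and this call ended without each of luminal 1, 2 and 3 and without mixed 1 or mixed 3 (adjusted p from 0.067 to 0.095). Oas1a, a synthetase with ISRE letters at its start, had a similar order of levels, 5.43 to 19.95 CPM in basal, 1.62 to 3.61 CPM in luminal and 3.14 to 17.9 CPM in mixed libraries. It was not called between luminal and basal (-1.87 ± 0.67, adjusted p = 0.06) or between mixed and luminal aggregates (1.88 ± 0.67, adjusted p = 0.055), but both differences passed with DESeq2 and in fits of only the 2 groups compared. The first also passed without basal 1, basal 2, mixed 2 or mixed 3, and the second without basal 2, basal 3 or mixed 2.

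Rtp4 stood out in the mixed aggregates. Rtp4 (chromosome 16, 23339041 to 23432972) encodes a receptor-transporting protein that interferon induces. It was at 9.03, 4.46 and 19.2 CPM in basal 1 to 3, 13.9, 12.3 and 8.47 CPM in luminal 1 to 3, and 65.4, 48.7 and 66.2 CPM in mixed 1 to 3. Every mixed library lay above every basal and luminal one. The log2 difference was 2.46 ± 0.43 from basal (adjusted p = 0.004) and 2.38 ± 0.43 from luminal aggregates (adjusted p = 0.0025), and both passed in all 21 alternatives, with 3.75 (adjusted p = 0.0048) within series A against basal 2. Of its exon bases 13.9% are shared with Gm45338.

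A test for genes above or below both pure groups, which takes the larger of the p-values against basal and luminal, called 0.0499% of all genes above and 0.0388% below, and none of the 38 in either direction. By the unadjusted p, 5 of the 38 were above and 0 below. The share of all genes at that threshold was not counted, so no excess can be read from this. Rtp4 came nearest (adjusted p = 0.079). It passed without basal 2 (0.011), without basal 3 (0.046), with DESeq2 (3.7e-05) and with limma-voom (0.02). Each of these fits called 1 gene of the 38 above and 0 below. How many of all genes these fits put above or below was not counted, so the shares given here are of the main fit only.

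Xaf1, a factor that promotes cell death, was at 4.16, 2.76 and 11.7 CPM in basal 1 to 3, 3.56, 5.16 and 3.49 CPM in luminal 1 to 3, and 19.4, 9.35 and 17.4 CPM in mixed 1 to 3. Mixed libraries lay above all luminal ones, and basal 3 lay above mixed 2. The difference between mixed and luminal aggregates was 1.92 ± 0.52 (adjusted p = 0.019) on the log2 scale, and this call ended without luminal 1, luminal 3 or mixed 1 (adjusted p from 0.06 to 0.073). Ifit1, which binds viral RNA, was at 49.7, 2.34 and 14.7 CPM in mixed 1 to 3 and between 2.67 and 9.37 CPM in all pure libraries. Mixed 2 thus held less Ifit1 than any other library, and the gene was not called. Without mixed 2 it was called higher in mixed aggregates than in either pure group. Ifit3 spanned 20.7, 0.431 and 8.01 CPM in mixed 1 to 3 and Ifi44 17.6, 5.85 and 49.2 CPM, and neither was called. Between mixed and luminal aggregates Ifit3 passed without mixed 2, and Ifi44 passed with DESeq2 and without basal 2, basal 3 or mixed 2. Usp18, which removes ISG15 from proteins, was at 3.25 to 13.1 CPM in basal, 12.4 to 23.4 CPM in luminal and 7.79 to 26.1 CPM in mixed libraries. Ifit2, a relative of Ifit1, ranged from 6.86 to 18.2 CPM over all libraries and Ifi35 from 31.8 to 61.0 CPM, and these 3 genes were not called.

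Of the sensors Ifih1 was called. Ifih1 (chromosome 2, 62426142 to 62476599), which encodes MDA5, a receptor for long double-stranded RNA, was at 15.8, 17.6 and 18.3 CPM in basal 1 to 3. It was at 28.8, 18.6 and 28.4 CPM in luminal 1 to 3 and at 33.9, 28.1 and 35.3 CPM in mixed 1 to 3, so all basal libraries lay below all others. It was 0.91 ± 0.22 higher in mixed than in basal aggregates on the log2 scale (adjusted p = 0.021). The call ended without basal 1 or 3 and without mixed 1 or 3 (adjusted p from 0.061 to 0.086), and the within-series value of 0.88 did not pass (adjusted p = 0.19). In luminal against basal aggregates the value was 0.55 ± 0.22 (adjusted p = 0.089). Dhx58, which encodes a relative of MDA5, ranged from 1.93 to 12 CPM over all libraries without a call. Zbp1, a sensor of left-handed nucleic acid, was at 2.54, 1.38 and 7.99 CPM in basal 1 to 3 and at 12.3, 7.2 and 20.5 CPM in mixed 1 to 3 (log2 difference 1.75 ± 0.62, adjusted p = 0.081). That difference passed with DESeq2, with limma-voom and without basal 3.

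Among the antiviral effectors and GTPases Gbp2 was called. Gbp2 (chromosome 3, 142326363 to 142343769), a guanylate-binding protein strongly induced by interferon gamma, was at 12.1, 4.02 and 14.4 CPM in basal 1 to 3. It was at 24.4, 27.7 and 25.9 CPM in luminal 1 to 3 and 32.1, 22.2 and 36.8 CPM in mixed 1 to 3. All basal libraries lay below all others. The log2 difference from basal was 1.36 ± 0.38 in luminal (adjusted p = 0.021) and 1.58 ± 0.39 in mixed aggregates (adjusted p = 0.021). The luminal call ended without luminal 2 (adjusted p = 0.06) or luminal 3 (0.053), and the mixed call without basal 1, mixed 1 or mixed 3 (adjusted p from 0.056 to 0.065). Within series the values were 0.88 for luminal (adjusted p = 0.14) and 2.92 for mixed aggregates (adjusted p = 0.0043).

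Gbp3, its neighbour on chromosome 3, had another order of levels, with 1.43 to 11.5 CPM in basal, 1.37 to 2.93 CPM in luminal and 2.89 to 9.42 CPM in mixed libraries. It was not called, but passed as lower in luminal than in basal aggregates without basal 2. Rsad2, the gene of viperin, was at 44.3 CPM in mixed 1 and at 1.85 and 4.85 CPM in mixed 2 and 3. In luminal 1 to 3 it was at 6.80, 7.24 and 7.03 CPM. So the mixed libraries lay on both sides of the luminal ones, and there was no call. Mx1 lay between 0.108 and 5.92 CPM in all libraries, and Bst2 was at 18.6, 21.0 and 73.1 CPM in basal 1 to 3 and 69.0, 32.4 and 80.9 CPM in mixed 1 to 3, also without a call. Bst2 passed as higher in mixed than in basal aggregates without basal 3.

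**Figure D4:**
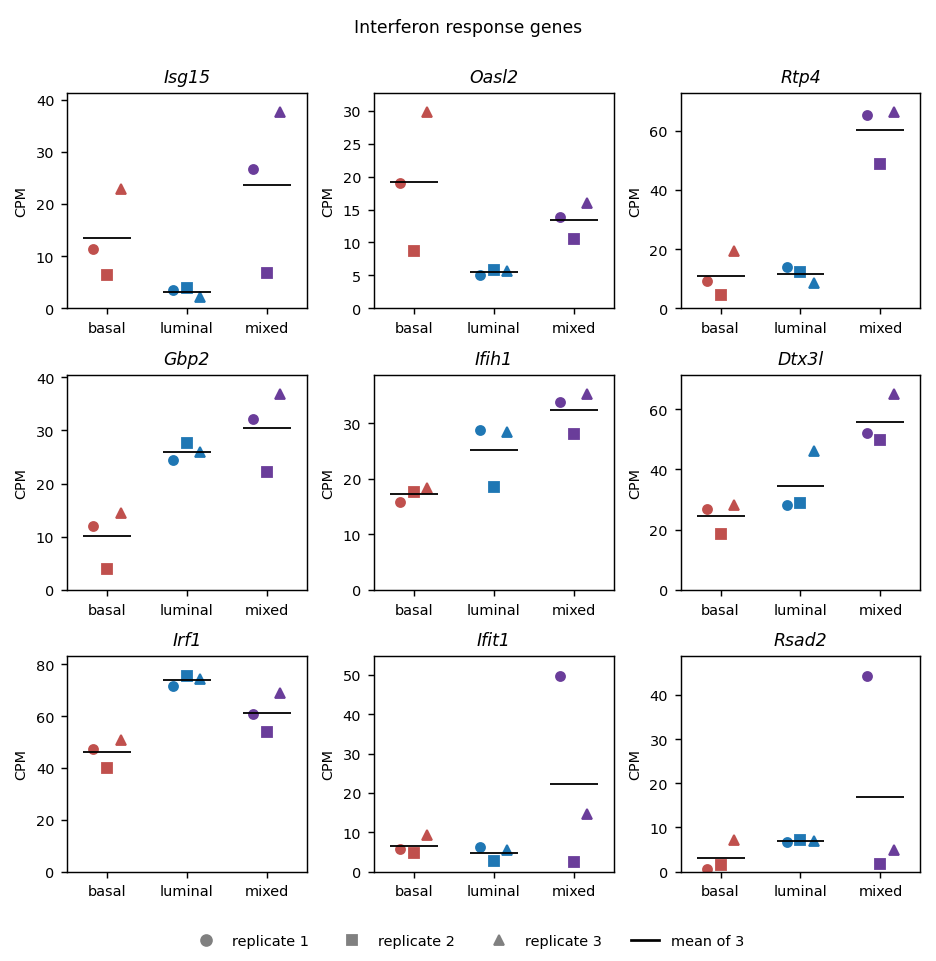
CPM (linear axes from 0) of 9 interferon response genes in each library by group, with a symbol for each replicate number and a bar at the mean of 3. The luminal libraries are lowest for Isg15 and Oasl2, the mixed libraries are highest for Rtp4, and mixed 1 carries the mixed mean of Ifit1 and Rsad2.

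Dtx3l encodes a ubiquitin ligase that works with PARP9. It stood at 26.8, 18.6 and 28.4 CPM in basal 1 to 3, 28.2, 28.8 and 46.1 CPM in luminal 1 to 3 and 52.2, 49.7 and 65.0 CPM in mixed 1 to 3. All mixed libraries lay above all others. It was 1.18 ± 0.25 higher in mixed than in basal aggregates on the log2 scale (adjusted p = 0.01), a call that held without each library in turn and within series (1.58, adjusted p = 0.029). Against luminal aggregates the value was 0.70 ± 0.24 (adjusted p = 0.051), which passed with DESeq2, with limma-voom and without basal 2 or luminal 3. Dtx3l and Parp9 lie head to head on chromosome 16 and share 8% and 9.4% of their exon bases. Parp9 was at 46.2, 22.6 and 33.8 CPM in mixed 1 to 3 and was not called in any comparison, nor was Parp14, which ranged from 6.12 to 18.5 CPM over all libraries.

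The MHC class I heavy chains were higher in luminal than in basal aggregates. H2-K1 (chromosome 17, 34214991 to 34219321) was at 328, 355 and 574 CPM in basal 1 to 3, 606, 765 and 730.4 CPM in luminal 1 to 3 and 617, 559 and 605 CPM in mixed 1 to 3. H2-D1 (chromosome 17, 35481706 to 35486475) was at 534, 604 and 965 CPM, 1051, 1361 and 1332 CPM, and 931, 818 and 754 CPM in the same order. For both genes the luminal libraries lay above all basal ones, with basal 3 nearest. Basal 3 lay above mixed 2 for H2-K1 and above every mixed library for H2-D1. Every mixed library lay below every luminal one for H2-D1, which was not called in that comparison. That H2-D1 difference passed with DESeq2, in the fit of only the 2 groups compared, and without basal 2 or basal 3. With the code series as a term it was -0.02. H2-K1 was 0.74 ± 0.22 (adjusted p = 0.025) and H2-D1 0.83 ± 0.23 (adjusted p = 0.019) higher in luminal than in basal aggregates on the log2 scale. The H2-K1 call ended without basal 1, basal 2, luminal 2 or luminal 3 (adjusted p from 0.059 to 0.079), and the H2-D1 call without basal 1, luminal 2 or luminal 3 (adjusted p from 0.058 to 0.06). Within series the values were 0.43 (adjusted p = 0.43) and 0.49 (adjusted p = 0.38), so neither passed there.

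B2m (chromosome 2, 121978167 to 121983564) was at 202, 429.9 and 494 CPM in basal 1 to 3, 441, 707 and 591 CPM in luminal 1 to 3, and 724, 593 and 794 CPM in mixed 1 to 3. The mixed libraries lay above the basal ones, but the difference of 0.91 ± 0.30 on the log2 scale did not pass (adjusted p = 0.067). It passed by DESeq2 and limma-voom and without basal 2. Nlrc5, the transactivator of MHC class I genes, stood at 3.55, 0.661 and 5.81 CPM in basal 1 to 3, 3.35, 1.25 and 4.86 CPM in luminal 1 to 3 and 1.37, 0.123 and 2.94 CPM in mixed 1 to 3. Its groups overlapped, and it was not called. Nlrc5 and H2-K1 did not have the same order of groups, as the mean of Nlrc5 was 3.34, 3.15 and 1.48 CPM and that of H2-K1 419, 700.5 and 593 CPM in basal, luminal and mixed aggregates.

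Of the peptide loading genes Tapbp held its call most often. Tapbp (chromosome 17, 34134873 to 34148266) was at 198, 152 and 259 CPM in basal 1 to 3, 379, 461 and 465 CPM in luminal 1 to 3, and 342, 339 and 391 CPM in mixed 1 to 3. All basal libraries lay below all others. Tapbp was 1.1 ± 0.20 higher in luminal than in basal aggregates on the log2 scale (adjusted p = 0.0018), in all 21 alternatives and within series (0.73, adjusted p = 0.045). In mixed against basal aggregates the value was 0.81 ± 0.20 (adjusted p = 0.023), which within series was 1.23 (adjusted p = 0.012). That call ended without basal 1 or any mixed library (adjusted p from 0.055 to 0.087). Of the exon bases of Tapbp 29% are shared with Gm19412 and Zbtb22.

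Of the subunits of the peptide transporter, Tap2 was called and Tap1 was not, and whether their differences are unlike was not tested. Tap2 (chromosome 17, 34422501 to 34435295) was at 39.8, 9.59 and 55.8 CPM in basal 1 to 3, 97.4, 86.1 and 115 CPM in luminal 1 to 3, and 33.3, 41.4 and 22.8 CPM in mixed 1 to 3. The luminal libraries lay above all others. Tap2 was 1.5 ± 0.47 higher in luminal than in basal aggregates (adjusted p = 0.034), and the fitted difference between mixed and luminal aggregates was -1.61 ± 0.47 on the log2 scale (adjusted p = 0.025). The first call ended without basal 1 or any luminal library (adjusted p from 0.058 to 0.096), and the second without luminal 1, luminal 3, mixed 1 or mixed 3 (from 0.058 to 0.086). Within series B the luminal value was 1.03 (adjusted p = 0.095). Within series A, against basal 2 with its 9.59 CPM, the mixed libraries were 1.76 higher (adjusted p = 0.037), a value that rests on this single basal library, where the comparison with all basal libraries gave -0.11 ± 0.46 (adjusted p = 0.9). Of the exon bases of Tap2 18.5% are shared with Gm15821 and Gm20496. Tap1, the other subunit, was at 38.8, 27.7 and 57.7 CPM in basal 1 to 3, 45.7, 43.4 and 58.9 CPM in luminal 1 to 3, and 56.3, 37.7 and 50.1 CPM in mixed 1 to 3. Its groups overlapped, its log2 difference between luminal and basal aggregates was 0.26 ± 0.26 (adjusted p = 0.54), and it was not called in any comparison.

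The immunoproteasome subunits, which replace the standard catalytic subunits, each had their highest group mean in mixed aggregates. Psmb8 (chromosome 17, 34416695 to 34420428) was at 18.8, 32.0 and 43.2 CPM in basal 1 to 3, 55.6, 106 and 67.0 CPM in luminal 1 to 3, and 97.5, 83.8 and 86.3 CPM in mixed 1 to 3. All basal libraries lay below all others. It was 1.28 ± 0.30 higher in luminal (adjusted p = 0.008) and 1.51 ± 0.30 higher in mixed than in basal aggregates (adjusted p = 0.0084) on the log2 scale. Both calls held without each library in turn, but not within series (0.84, adjusted p = 0.26, and 1.48, adjusted p = 0.11). Of its exon bases 14.7% are shared with Gm20496.

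Psmb9 (chromosome 17, 34400961 to 34406738) was at 9.89, 11.7 and 21.1 CPM in basal 1 to 3, 16.4, 31.5 and 22.9 CPM in luminal 1 to 3, and 33.4, 29.5 and 49.7 CPM in mixed 1 to 3. It was 1.4 ± 0.34 higher in mixed than in basal aggregates (adjusted p = 0.021), with no overlap of these groups. The call ended without basal 1 (adjusted p = 0.094) or mixed 3 (0.073), and the within-series value was 1.68 (adjusted p = 0.1). Psmb10 (chromosome 8, 106662367 to 106665076) was at 24.6, 41.7 and 35.4 CPM in basal 1 to 3, 30.0, 41.8 and 27.0 CPM in luminal 1 to 3, and 55.7, 46.9 and 68.1 CPM in mixed 1 to 3. All mixed libraries lay above all others. The log2 difference was 0.79 ± 0.25 from luminal (adjusted p = 0.033) and 0.75 ± 0.25 from basal aggregates (adjusted p = 0.067). The first ended without basal 3, luminal 1, luminal 3, mixed 1 or mixed 3 (adjusted p from 0.052 to 0.13). The second passed with DESeq2, with limma-voom and without basal 2, and its within-series value of 0.45 did not pass (adjusted p = 0.57). In luminal against basal aggregates Psmb10 gave -0.04 ± 0.25 (adjusted p = 0.93).

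**Figure D5:**
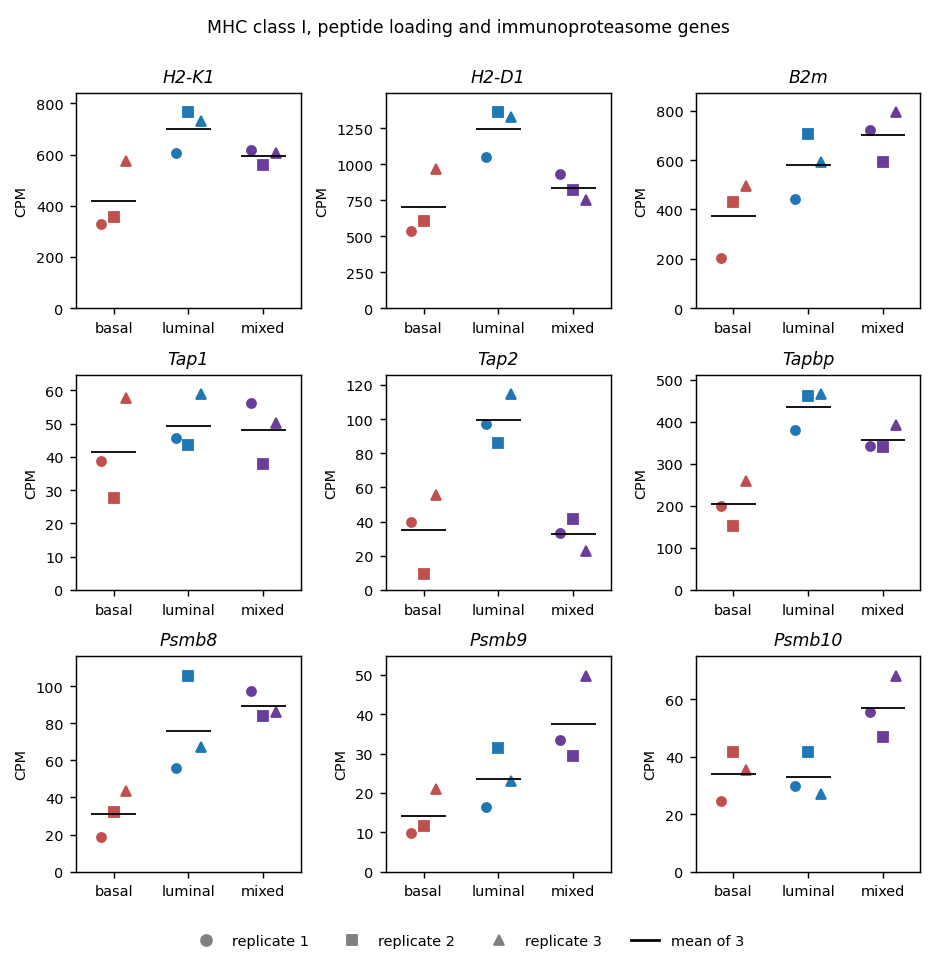
CPM (linear axes from 0) of 9 MHC class I, peptide loading and immunoproteasome genes in each library by group, with a symbol for each replicate number and a bar at the mean of 3. Luminal libraries lie above all others for Tap2, basal libraries below all others for Tapbp and Psmb8, and mixed libraries above all others for Psmb10.

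Upstream of these genes, transcripts of the interferons themselves were near absent. Of 11 interferon genes 5 had 0 counts in every library and none passed the filter. The highest value was that of Ifnb1, with 0.871 CPM (16 counts) in mixed 3, 2 counts in luminal 3 and 0 in the other 7 libraries.

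Ifnar2, a chain of the type I receptor, was at 21.0, 25.1 and 27.9 CPM in basal 1 to 3, 72.9, 85.6 and 73.9 CPM in luminal 1 to 3 and 55.8, 55.3 and 68.9 CPM in mixed 1 to 3. The log2 difference from basal was 1.65 ± 0.18 in luminal (adjusted p = 3.6e-05) and 1.28 ± 0.18 in mixed aggregates (adjusted p = 0.00095), and both passed in all 21 alternatives. Ifnar1, the other chain, did not follow it: 40.8 to 52.1 CPM in basal, 39.8 to 64.0 CPM in luminal and 22.4 to 34.4 CPM in mixed libraries, with a log2 difference of -0.88 ± 0.23 between mixed and luminal aggregates (adjusted p = 0.016). That call ended without luminal 3, mixed 1 or mixed 2 (adjusted p up to 0.075). Il10rb, a chain of the type III receptor, had differences from basal of 2.08 ± 0.18 in luminal (adjusted p = 6.8e-06) and 1.72 ± 0.18 in mixed aggregates (adjusted p = 0.00015), while its partner Ifnlr1 gave 0.22 ± 0.31 (adjusted p = 0.67) and 0.05 ± 0.31 (adjusted p = 0.93). Both chains of the interferon gamma receptor were higher in luminal than in basal aggregates, Ifngr1 by 1.14 ± 0.16 (adjusted p = 0.00027) and Ifngr2 by 1.1 ± 0.19 (adjusted p = 0.0013). These 2 calls held within series (1.30 and 1.11, adjusted p = 0.0033 and 0.016).

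Tyk2, a JAK kinase of the type I receptor, was at 61.3, 22 and 55.1 CPM in basal 1 to 3, 52.5 to 80.0 CPM in luminal and 16.3 to 25.6 CPM in mixed libraries, so basal 2 was close to the mixed libraries of its code series. Its log2 difference between mixed and luminal aggregates was -1.67 ± 0.34 (adjusted p = 0.005). That between mixed and basal aggregates was -1.16 ± 0.34 (adjusted p = 0.043), which ended without any library but basal 2 (adjusted p up to 0.18) and was -0.10 within series (adjusted p = 0.93).

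Of 18 tested sensors and adaptors 3 were higher and 2 lower in luminal against basal, 2 higher and 1 lower in mixed against basal, and 2 higher and 2 lower in mixed than in luminal aggregates. Of all genes 12.8% and 14.4%, 6.39% and 7.33%, and 15.2% and 14.2% were higher and lower in these comparisons, which is also the background of the lists that follow. Myd88, an adaptor of Toll-like receptors, was 1.17 ± 0.16 higher in luminal (adjusted p = 0.00018) and 1.36 ± 0.16 higher in mixed than in basal aggregates (adjusted p = 3e-04), and both passed in all 21 alternatives. Cgas, which senses DNA in the cytosol, was at 3.86 to 6.15 CPM in basal, 0.89 to 1.62 CPM in luminal and 6.41 to 14.5 CPM in mixed libraries. Its difference between mixed and luminal aggregates was 2.73 ± 0.49 (adjusted p = 0.0025). Irf3, the factor that sensors activate, was at 54.9 to 77.9 CPM in basal, 95.9 to 122 CPM in luminal and 58.9 to 71.6 CPM in mixed libraries (luminal minus basal 0.70 ± 0.18 on the log2 scale, adjusted p = 0.012), a call lost within series.

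Of 10 tested negative regulators 5 were higher in luminal than in basal aggregates, 3 were higher in mixed than in basal, and 2 were lower in mixed than in luminal, where 12.8%, 6.39% and 14.2% of all genes were. Socs3, which inhibits JAK kinases, was at 73.5, 28.6 and 82.2 CPM in basal 1 to 3, 163, 139.7 and 129 CPM in luminal 1 to 3, and 63.9, 62.6 and 52.2 CPM in mixed 1 to 3. It was 1.23 ± 0.31 higher in luminal than in basal aggregates (adjusted p = 0.012). Samhd1, which breaks down deoxynucleotides and limits retroviruses, rose by 1.96 ± 0.19 in luminal (adjusted p = 1.6e-05) and 1.81 ± 0.19 in mixed aggregates (adjusted p = 0.00017) against basal, in all 21 alternatives.

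Of 56 other tested interferon-stimulated genes 8 were higher and 7 lower in luminal against basal, 5 higher and 0 lower in mixed against basal, and 12 higher and 2 lower in mixed than in luminal aggregates. The counts in luminal against basal lie near the background of 12.8% higher and 14.4% lower genes. Their median log2 differences were -0.26, 0.36 and 0.70, against -0.02, -0.07 and -0.05 over all genes. Slfn2, a Schlafen family gene, was at 1.42, 1.82 and 5.29 CPM in basal 1 to 3, 16.4 to 22.7 CPM in luminal and 17.3 to 26.4 CPM in mixed libraries, with differences from basal of 2.84 ± 0.45 (adjusted p = 0.00061) and 2.89 ± 0.45 (adjusted p = 0.002). Ifi27l2a went the other way, with 2.74, 5.73 and 22.9 CPM in basal 1 to 3, 0.054, 0.0593 and 0.747 CPM in luminal 1 to 3, and 6.87, 4.80 and 15.6 CPM in mixed 1 to 3. Tgtp1 had 0 counts in the luminal libraries and in mixed 3, and 0.441 to 5.29 CPM in the basal ones.

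Of 23 other tested MHC class I pathway genes 3 were higher and 2 lower in luminal against basal, 2 higher and 0 lower in mixed against basal, and 1 higher and 4 lower in mixed than in luminal aggregates. In luminal against basal 12.8% of all genes were higher and 14.4% lower, so these counts are near the background. H2-T23, a non-classical heavy chain, was at 172, 201 and 225.5 CPM in basal 1 to 3, 764, 775 and 631 CPM in luminal 1 to 3, and 357, 340.4 and 349.8 CPM in mixed 1 to 3. The 3 groups did not overlap. H2-T23 was 1.86 ± 0.17 higher in luminal (adjusted p = 9.2e-06) and 0.81 ± 0.16 higher in mixed than in basal aggregates (adjusted p = 0.0091), and the fitted difference between mixed and luminal aggregates was -1.05 ± 0.16 (adjusted p = 0.0011). Within series the first value was 1.94 (adjusted p = 3e-04) and the second 0.79 (adjusted p = 0.079). H2-Q2 had the same order, with 1.62 to 4.30 CPM in basal, 20.3 to 26.4 CPM in luminal and 7.78 to 9.72 CPM in mixed libraries. Both belong to a family of close copies, so reads may have been lost to multiple alignment. Calr and Canx, chaperones that fold the heavy chain, had log2 differences between luminal and basal aggregates of -1.01 ± 0.19 (adjusted p = 0.002) and -0.62 ± 0.19 (adjusted p = 0.029), and the Canx call ended without basal 2, luminal 1 or luminal 2 (adjusted p up to 0.099).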

How the data were processed

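For each group 3 libraries were prepared from RNA of the aggregates with a stranded mRNA kit, per the labels' protocols. The deposited values are raw counts for each gene name, which the authors made with featureCounts 2.0.1, and its annotation columns, including the summed exon length in bases (deposited beside the counts and used for levels per kilobase). Per the file headers, the counting ignored strand and left out multi-mapped reads. Trim Galore, Subread and mm39 come from the submitters' processing notes, and the annotation release is not given in the sources used here. Gene positions are those of the table (mm39), and promoters are RefSeq's of GRCm38.p6, used for letters only.

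The analysis used edgeR 4.0.16 under R 4.3.3: filterByExpr with the 3 groups, TMM scaling, 1 fit over all 9 libraries with the group as the only term (6 residual degrees of freedom), a robust two-sided quasi-likelihood test, and Benjamini-Hochberg adjustment over 18051 genes at 0.05. Log2 differences are given with SE. CPM are TMM-scaled without a pseudocount. The test was checked on simulated data. Alternatives were other scalings and filters, DESeq2 1.42.0, limma-voom (limma 3.58.1), a replicate block from the title numbers, the code series as a term (4 residual degrees of freedom), separate fits for each pair of groups, a 1.5-fold minimum change, and libraries left out. No libraries were duplicates.

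The members and all lists were chosen with earlier results of these data known. Of 155 pathway symbols 152 were in the table and 125 tested. Named were all members, up to 2 pathway genes per list, direction and comparison with the largest difference (mean of at least 1 CPM, groups not overlapping, of which the text gives a part), and Ifnar1, Ifnar2, Ifngr1, Ifngr2 and Ifnlr1. The counts of the receptor and JAK list are not reported here. Dendritic cell, fibroblast and endothelial markers were also summed: 0.937 to 11.5, 6.53 to 38.7 and 0.178 to 7.08 CPM over the libraries.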

Additional observations from a re-analysis of the deposited data

How the results depend on the processing

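Of 22 calls of a gene in a comparison, 4 held in all 21 alternatives: Oasl2 and Tapbp in luminal against basal aggregates, and Rtp4 in mixed against basal and against luminal. Most were lost against a 1.5-fold change, and most with the code series as a term. With the code series, 2 called differences between mixed and luminal aggregates, reached only through basal libraries, changed sign: Tap2 to 0.734 and Uba7 to 0.904 (adjusted p = 0.67 and 0.64), and of 92 differences not called 26 changed sign without a call. In that fit 1280 of all genes passed as higher and 1227 as lower in luminal against basal (1 and 1 of the 38). In mixed against basal, which rests on the single library basal 2 in that fit, 529 and 324 passed (5 and 0 of the 38). In mixed against luminal 370 and 121 passed (2 and 0 of the 38). The medians of the 38 were 1.354 and 1.576 in the comparisons with mixed aggregates. Higher calls made up 62% and 75.4% of all calls there, against 46.5% and 51.8%. With the title number as a replicate block, 8 of the 38 were higher and 2 lower in mixed against luminal aggregates (2695 and 2311 of all genes). Same-numbered libraries of different groups correlated at -0.166 to 0.201 after the group means were removed. With 3 libraries per group this cannot settle whether the number pairs them. The column names carry partly other numbers, which were not examined. Against a 1.5-fold change, 1257 and 1628, 510 and 388, and 1279 and 964 genes passed as higher and lower in the 3 comparisons, and of the 38 genes 2 and 1, 2 higher, and 2 and 0. Without a filter, which left 33929 genes to test, 11 and 5, 15 and 2, and 12 and 3 of the 38 were called. Of all genes 2559 and 2866, 1713 and 2190, and 2987 and 3280 were called there. Of the 38, 2 were above both pure groups (Rtp4 and Ifit1). DESeq2 called 2340 genes lower in mixed than in basal. In mixed against luminal it called 9 and 2 of the 38 (3222 and 3391 of all genes), and it put 1 of the 38 above both. Limma-voom called 1 of the 38 lower in luminal than in basal (2665 of all genes). It called 11 higher in mixed than in basal (1427 of all genes) and 1 above both. Library size scaling left 4 of the 38 higher in luminal than in basal (1750 of all genes). It moved the median of all genes to -0.166 (luminal) and -0.221 (mixed) against basal. It also lowered the share of higher calls to 35% and 33.6%, from 47% and 46.5%. Fits of only the 2 groups compared called 9 and 2 of the 38 in mixed against luminal (3114 and 2535 of all genes). With basal 2 and mixed 3 both left out, 6 of the 38 were lower in luminal than in basal (2872 of all genes). In mixed against basal 2525 and 2604 of all genes passed as higher and lower (2 of the 38 lower), and 1 of the 38 was above both. Leaving out 1 library gave, for luminal against basal, 1642 to 2533 genes higher and 1907 to 2860 lower, 3 to 8 and 1 to 4 of the 38, and a median of -0.01 to 0.59. For mixed against basal it gave 558 to 2627 and 405 to 2493, 3 to 10 and 0 to 2, and 0.29 to 0.88. For mixed against luminal it gave 1550 to 3400 and 1417 to 3374, 2 to 9 and 0 to 2, and 0.17 to 0.45, with 0 to 1 of the 38 above both pure groups and 0 below. Over all genes, those above or below both pure groups were counted in the main fit only, so the alternatives have no such share. The causes of these changes were not tested. For the promoters, asking for an A after the ISRE letters gave 37% of the genes against 3.46% of all symbols, and adding the bases after the start gave 44.4% against 9.76%. Depth limits genes near the value of 3 counts, such as Mx2 and Ifnb1.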

Other observations

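MHC class II genes display peptides to helper T cells and are mostly made by professional antigen-presenting cells, and some of them were high in basal 2 as well as in the mixed libraries, which make up code series A. Cd74, the invariant chain, was at 1.88, 27.3 and 0.633 CPM in basal 1 to 3, 1.03, 1.19 and 0.0622 CPM in luminal 1 to 3, and 26.7, 26.3 and 36.4 CPM in mixed 1 to 3. H2-Aa, a class II chain, was at 5.95 CPM in basal 2 and 5.09, 5.85 and 2.56 CPM in mixed 1 to 3, and at 0 to 0.152 CPM elsewhere. All 4 libraries of series A were thus higher than all 5 others for both genes. Between mixed and luminal aggregates Cd74 differed by 5.27 ± 1.23 on the log2 scale (adjusted p = 0.0097), and between mixed libraries and basal 2, within series A, by 0.12 (adjusted p = 0.97). The 15 macrophage and monocyte markers summed to 33.5 CPM in basal 2 and 30.6 to 53.2 CPM in the mixed libraries, to 3.80 and 4.14 CPM in basal 1 and 3, and to 26.0, 21.5 and 54.2 CPM in luminal 1 to 3. In basal 1, basal 3 and each luminal library 7 to 9 of these markers were at 0 counts. In basal 2 and the mixed libraries 0 to 2 were. Their part in the class II levels was not tested. Of 8 tested class II genes 1 was higher and 2 lower in luminal against basal, 1 higher and 0 lower in mixed against basal, and 3 higher and 1 lower in mixed than in luminal aggregates, where 12.8% and 14.4%, 6.39% and 7.33%, and 15.2% and 14.2% of all genes were. H2-DMb1, which edits class II peptides, had another order, with 4.41 to 5.98 CPM in basal, 19.4 to 22.6 CPM in luminal and 7.81 to 11.5 CPM in mixed libraries, and its luminal minus basal difference passed within series (adjusted p = 0.0098).

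Ifitm3, an interferon-induced membrane protein that blocks virus entry and was singled out after its values were seen, was at 864, 1713 and 1269 CPM in basal 1 to 3, 58.3, 105 and 88.9 CPM in luminal 1 to 3, and 1324, 912 and 1284 CPM in mixed 1 to 3. Its log2 difference between luminal and basal aggregates was -3.93 ± 0.32 (adjusted p = 4.1e-06) and passed in all 21 alternatives, within series at -4.19 (adjusted p = 1e-04). Mixed and basal libraries overlapped.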
